A study of Homo sapiens with 6 samples.

Results

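The genes described here are 10 feedback regulators of mitogen-activated protein kinase (MAPK) signalling, chosen by name: the phosphatase genes *DUSP1*, *DUSP4*, *DUSP5*, *DUSP6* and *DUSP7*, the Sprouty genes *SPRY1*, *SPRY2* and *SPRY4*, and the Sprouty-related genes *SPRED1* and *SPRED2*. They were chosen with earlier results of these data known. All 10 are among the 61228 gene names of the deposited table, and all 10 were among the 15373 genes with enough counts to be tested. They were measured by poly(A) RNA-seq in 6 libraries of HBE cells, an immortalized human bronchial epithelial cell line of wild-type (WT) genotype. In 3 libraries the cells had received cockroach extract (CRE), an allergen preparation, and in 3 they had received CRE together with VAF347, a small-molecule agonist of the aryl hydrocarbon receptor (AhR), used at 20 μM and added before CRE per the study's cell culture methods. The series' design text gives an exposure of 24 h. Both groups carry CRE, so the comparison is of VAF347 added to CRE. No vehicle for the cells given CRE alone is named in the sources used here. Any effect of a solvent or of the pre-treatment itself would be part of the difference. The CRE dose of these libraries is not given in the sources used here, untreated cells and cells given VAF347 alone were not analysed here, and no label says whether replicates came from separate cultures, so p-values measure the spread between these libraries, which may be technical.

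In the MAPK cascade, growth factor receptors such as EGFR activate Ras, which acts through RAF and MEK kinases to activate the kinases ERK1 and ERK2. Active ERK enters the nucleus and raises transcription of immediate early genes and also of its own inhibitors. The dual-specificity phosphatases (DUSPs) remove the activating phosphates from MAPKs, Sprouty proteins dampen signalling between receptors and RAF, and SPRED proteins bring the Ras inactivator neurofibromin to the membrane. In many epithelial cells the transcripts of these inhibitors follow ERK activity, and for that reason they are widely read as markers of it.

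None of the 10 feedback genes passed the test of CRE + VAF347 against CRE. By edgeR's quasi-likelihood test with Benjamini-Hochberg adjustment over all genes tested, 0 of 10 had an adjusted p under 0.05, where 5.42% of all genes did. With a log2 fold change beyond 0.5 in either direction required as well, 2.21% of all genes passed. The study paired this fold threshold with an unadjusted p under 0.05 from DESeq2. With edgeR's unadjusted p in that pairing, 1 of the 10, *DUSP6*, was past both thresholds, as were 4.87% of all genes tested. DESeq2, which gave no adjusted p for *DUSP6* and *SPRY1*, called 0 of the other 8, with 2 of 10 at an unadjusted p under 0.05, and limma on TPM called 0, with 0 at an unadjusted p under 0.05. At an unadjusted p under 0.05 there were 3 of 10, *DUSP6*, *SPRED1* and *SPRY4*, where 20.8% of all genes lay under it. Fitted log2 fold changes were above 0 for 8 genes and below 0 for *DUSP1* and *DUSP7*, while 52.1% of all genes tested lay above 0. The median log2 fold change was 0.20 over the 10 genes and 0.01 over all genes tested. In CPM, which are counts scaled by the library total and by TMM, edgeR's normalization between libraries, the 3 CRE + VAF347 values of 6 of the 10 genes all lay above the 3 CRE values, where 12.5% of all genes tested did so and 27.3% were apart in either direction. In the deposited TPM this held for 1 of the 10, *SPRED2*, and for 6.3% of all genes tested. Because the members were chosen with earlier results known, these counts and medians describe them and do not test a joint change. Groups of 3 allow no exact two-sided permutation p under 0.1. In these bulk libraries, fewer cells with a transcript and less of it per cell cannot be told apart. Levels below are in CPM unless TPM is named.

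**Figure D1:**
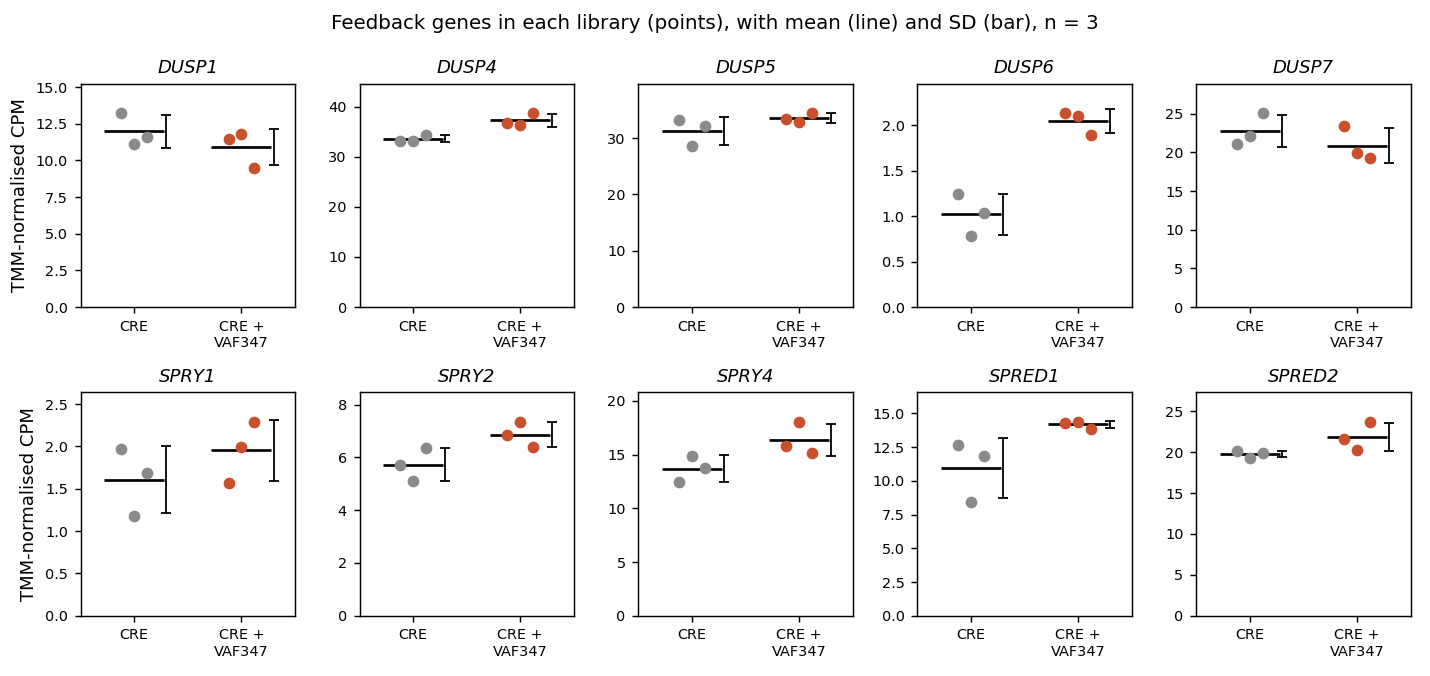
TMM-normalised CPM (y axis, from 0) of each of the 10 feedback genes in the 3 CRE and 3 CRE + VAF347 libraries (points), with the mean as a line and the SD as a bar. The groups are apart on this scale for *DUSP4*, *DUSP6*, *SPRY2*, *SPRY4*, *SPRED1* and *SPRED2* and overlap for the other 4 genes.

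The libraries held 8873160 to 10750283 counts. Every pair of replicates was further apart than counting noise allows: chi-square averaged 1.79 to 2.58 per gene in pairs without CRE replicate 3, and 8.95 and 9.25 in pairs with it. That library also stood apart on the second principal component, at -19.9 against 16.3 and 12.6 for CRE replicates 1 and 2, and the values of the members without it are given with the other alternatives. Transcripts of AhR target genes rose with VAF347, as all 4 genes looked at (*CYP1A1*, *CYP1B1*, *AHRR* and *TIPARP*) had log2 fold changes of 2.16 to 6.20. Epithelial markers were present in CRE libraries, with *KRT8* at 1739 CPM, *EPCAM* at 342.5 CPM and the basal cell keratins *KRT5* and *KRT17* at 15.9 and 150.4 CPM. The other basal cell markers, *KRT14* and *TP63*, had under 5 counts in every library, as did 3 of 5 immune markers (*PTPRC*, *CD3E* and *CD79A*) and 3 of 6 fibroblast markers (*PDGFRA*, *LUM* and *DCN*). Summed over each list, epithelial markers were at 4522 to 4824 CPM with CRE and 4349 to 4470 with VAF347, immune markers at 27.6 to 31.8 and 18.9 to 25.3, and fibroblast markers at 38.4 to 47.6 and 37.2 to 40.6. Of the 7 epithelial markers tested, 2 fell and 0 rose, where 4.07% of all genes tested fell. These were *KRT17* and *KRT19*, with log2 fold changes of -0.27 and -0.38 (adjusted p = 0.0240 and 0.0266 from edgeR). Of 4 endothelial markers, *PECAM1* and *CLDN5* were under 5 counts, while *CDH5* and *VWF* fell by 0.84 and 1.45 on the log2 scale. The summed level of these 4 genes was 21.0 to 21.9 CPM with CRE and 10.6 to 12.2 CPM with VAF347, and their part in any result below was not tested.

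The level of these genes was compared per transcript length, in the deposited TPM, which divides each transcript's fragments by its length and scales every library to the same sum. *DUSP5* was the most abundant, with 18.5 ± 2.75 (SD, n = 3) TPM in CRE libraries, apart from every other member. *DUSP7*, *DUSP4* and *DUSP1* came next, at 9.43, 8.88 and 8.43 TPM, and their replicate ranges overlapped from neighbour to neighbour. *SPRED2* followed at 6.48 TPM, below the lowest *DUSP1* library. *SPRY4*, *SPRED1* and *SPRY2*, at 4.92, 4.74 and 4.61 TPM, could not be ordered. *SPRY1* and *DUSP6* were the lowest, at 1.71 ± 0.48 and 1.03 ± 0.41 (SD, n = 3) TPM, with overlapping ranges. With VAF347, *DUSP5* was again the most abundant at 19.4 TPM and *SPRY1* and *DUSP6* again the lowest, at 2.05 and 1.17 TPM, while *SPRED2* at 8.04 TPM lay between *DUSP7* and *DUSP1* and overlapped both. The Sprouty and SPRED transcripts were present at lower TPM than the phosphatases other than *DUSP6*, in both groups, except that *SPRED2* overlapped *DUSP7* and *DUSP1* with VAF347.

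The phosphatases of the nucleus are described first. *DUSP1* (MKP-1), an immediate early gene whose product acts on p38, JNK and ERK, lies on chromosome 5 of GRCh38 from 172768096 to 172771195. It had 13.2, 11.1 and 11.6 CPM in CRE replicates 1 to 3, and 11.5, 11.8 and 9.48 CPM in the CRE + VAF347 replicates. The groups overlapped, with a log2 fold change of -0.14 (95% interval -0.42 to 0.15, adjusted p = 0.589 from the edgeR test), so that neither a fall of 0.5 nor a rise of 0.5 lies within the interval. *DUSP4* (MKP-2), an ERK-inducible phosphatase on chromosome 8 from 29333064 to 29350684, had 33.1, 33.3 and 34.4 CPM with CRE and 36.7, 36.4 and 38.8 CPM with VAF347. Every VAF347 library was above every CRE library in CPM, but not in TPM, and the log2 fold change was 0.15 (95% interval -0.0049 to 0.31, adjusted p = 0.255). *DUSP5*, whose product binds and inactivates ERK in the nucleus, lies on chromosome 10 from 110497907 to 110511533. It had 33.2, 28.6 and 32.1 CPM with CRE and 33.5, 32.8 and 34.5 CPM with VAF347. CRE replicate 1 lay within the VAF347 values, and the log2 fold change was 0.10 (95% interval -0.08 to 0.28, adjusted p = 0.516). For *DUSP4* and *DUSP5*, which are the members with the highest counts, the upper ends of these intervals correspond to rises of 1.24-fold and 1.22-fold.

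Of the cytoplasmic, ERK-directed phosphatases, one had a fitted change below 0 and the other the largest fitted change of the members. *DUSP7*, on chromosome 3 from 52048919 to 52056571, had 21.1, 22.2 and 25.1 CPM with CRE and 23.5, 19.9 and 19.2 CPM with VAF347. Its groups overlapped, with a log2 fold change of -0.13 (95% interval -0.37 to 0.10, adjusted p = 0.522), which was -0.06 without CRE replicate 3. *DUSP6* (MKP-3), a phosphatase widely used as a readout of ERK activity, lies on chromosome 12 from 89347235 to 89352501. CRE replicates 1 to 3 gave 12, 8 and 11 counts and the CRE + VAF347 replicates 19, 20 and 19, or 1.02 ± 0.23 (SD, n = 3) and 2.04 ± 0.13 (SD, n = 3) CPM. The log2 fold change of 1.00 (standard error 0.29, 95% interval 0.37 to 1.63) was larger than that of every other member, and ranked 164 in size among all genes tested, yet the adjusted p was 0.0697. At its level, 1.25% of the 1358 genes within 0.5 log2 units of its mean CPM had an adjusted p under 0.05.

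The separation of the groups in counts was not seen in TPM for *DUSP6*, nor for *DUSP4*, *SPRY2*, *SPRY4* and *SPRED1*. Unlike the CPM, the TPM were not scaled between libraries by TMM. CRE replicate 3 had the highest CRE value in TPM for *DUSP4*, *SPRY2*, *SPRY4* and *SPRED1*, at 10.1, 5.58, 5.54 and 5.55. What part the scale of that library played in these overlaps was not tested. In TPM *DUSP6* had 0.56, 1.27 and 1.27 with CRE and 0.99, 1.61 and 0.90 with VAF347, so that the groups overlapped. On log2(TPM + 1) the difference was 0.10 (standard error 0.27, adjusted p = 0.940 from limma), a scale that understates changes of low genes, and on log2(TPM + 0.1) it was 0.20. Counts divided by TPM give the transcript length that the quantification assigned to the gene in a library, up to a constant. Relative to the library's median, this length was 1.55, 0.44 and 0.66 for *DUSP6* in CRE replicates 1 to 3 and 1.54, 0.94 and 1.55 in the CRE + VAF347 replicates. The largest was 3.53 times the smallest, and no more than 1.55 times for the other members. The median was 1.13 over the 13863 tested genes with at least 1 TPM in every library. That set leaves out *DUSP6*, and the spread of this length among genes with as few counts was not compared. With these lengths as offsets in the count model, the log2 fold change of *DUSP6* was 0.31 (standard error 0.41). Those of *DUSP4*, *SPRY2*, *SPRY4* and *SPRED1* were then 0.15, 0.26, 0.14 and 0.29, against 0.15, 0.26, 0.26 and 0.37 in the reported fit. GENCODE lists transcripts of different length for the gene, and how fragments were divided among them was not tested.

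**Figure D2:**
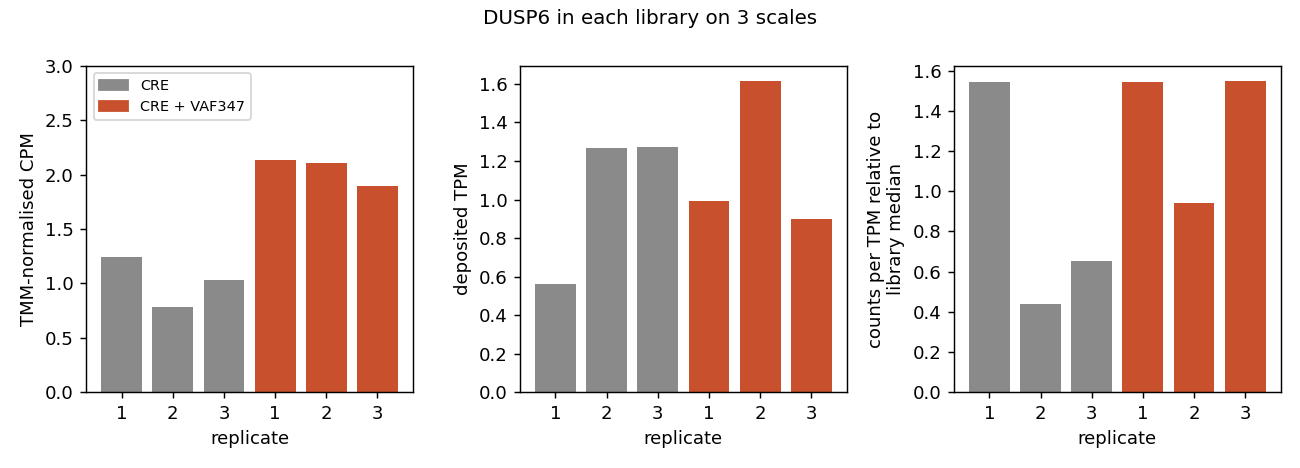
*DUSP6* in each library as TMM-normalised CPM (left), as deposited TPM (middle) and as counts per TPM relative to the library's median gene (right), with CRE bars in grey, CRE + VAF347 bars in orange and the replicate number on the x axis. The VAF347 bars exceed all CRE bars on the left, overlap them in the middle, and the right panel runs from 0.44 to 1.55.

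The Sprouty genes all had fitted fold changes above 0, between 0.26 and 0.29 on the log2 scale, and 0 of 3 passed the test. *SPRY2*, whose product binds the ubiquitin ligase CBL and holds back receptor signalling to Ras, lies on chromosome 13 from 80335976 to 80341126. It had 5.69, 5.10 and 6.36 CPM with CRE and 6.85, 7.36 and 6.38 CPM with VAF347. The groups did not overlap in CPM, where CRE replicate 3 and CRE + VAF347 replicate 3 nearly met, and overlapped in TPM. The log2 fold change was 0.26 (95% interval -0.07 to 0.60, adjusted p = 0.365 from edgeR), and 0.35 without CRE replicate 3. *SPRY4*, an ERK-induced Sprouty gene on chromosome 5 from 142310427 to 142326455, had 12.4, 14.9 and 13.7 CPM with CRE and 15.8, 18.1 and 15.2 CPM with VAF347. These groups too were apart in CPM and overlapped in TPM. Its log2 fold change was 0.26 (95% interval 0.0038 to 0.51, adjusted p = 0.233), and 0.14 with the length offsets. *SPRY1*, on chromosome 4 from 123396795 to 123403760, was rarely counted: the CRE libraries held 19, 12 and 18 and the VAF347 libraries 14, 19 and 23. The groups overlapped, and the log2 fold change of 0.29 had a wide interval, from -0.34 to 0.92 (adjusted p = 0.610), which holds 0 and reaches past 0.5.

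The SPRED genes both had every VAF347 library above every CRE library in CPM, without passing the test, and in TPM this held for *SPRED2* and not for *SPRED1*. *SPRED1*, whose product recruits neurofibromin to inactivate Ras, lies on chromosome 15 from 38252836 to 38357249. It had 12.6, 8.44 and 11.9 CPM with CRE and 14.3, 14.4 and 13.9 CPM with VAF347. CRE replicate 2 was the low library, and the VAF347 values were close together. The log2 fold change was 0.37 (standard error 0.14, 95% interval 0.05 to 0.69, adjusted p = 0.173 from edgeR). Without CRE replicate 2 it was 0.21 with an adjusted p of 0.355, and without CRE replicate 3 it was 0.43 with an adjusted p of 0.0941. *SPRED2*, on chromosome 2 from 65310851 to 65432637, had 20.1, 19.3 and 19.9 CPM with CRE and 21.6, 20.3 and 23.7 CPM with VAF347. Its log2 fold change was 0.15 (95% interval -0.06 to 0.35, adjusted p = 0.402). For *SPRED2* the length offsets moved the value upward, to 0.34.

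**Figure D3:**
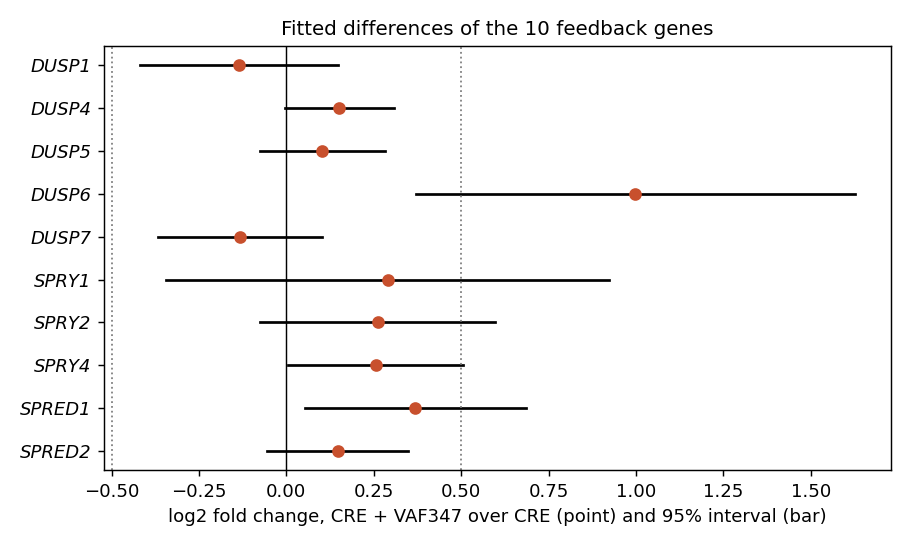
Log2 fold change of CRE + VAF347 over CRE (x axis, points) with its 95% interval (bars) for each feedback gene, with dotted lines at the study's fold threshold of 0.5 in either direction. The intervals of *DUSP6*, *SPRY4* and *SPRED1* lie above 0 before adjustment, and those of *DUSP1*, *DUSP4*, *DUSP5*, *DUSP7* and *SPRED2* lie within the dotted lines.

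VAF347 acts through AhR, and the bases before the start of each gene were searched on both strands for the AhR core sequence GCGTG and for 4 other motifs. RefSeq promoters on GRCh38.p14 were found for 8 of the 10 genes, and the 250 bases before the annotated RefSeq start were used. For *SPRY4* and *SPRED2* this start differs from the GENCODE position given above. The *SPRY4* window, 142324248 to 142324497, lies within the GENCODE span of the gene, and the *SPRED2* window overlaps the 5′ end of its span. The AhR core was present in 3 of these 8, *DUSP6*, *SPRY1* and *SPRED2*, against 32.2% of 35116 promoters of the same length. The cAMP response element TGACGTCA, found in 1.65% of all promoters, was present in *DUSP1*. The ETS core CCGGAA, found in 14.5%, was present in *SPRY2*. The AP-1 sequence TGANTCA and an NF-kappaB consensus with 1 free position, found in 6.57% and 0.527%, were in 0 of the 8. Each of the 5 windows with a match holds 1 match, and they are shown because they hold one, a choice made after the matches were seen. They run 5′ to 3′ on the strand of the gene, with the motif in capitals, which reads CACGC where the core lies on the opposite strand.
*DUSP6*, chr12:89352502-89352751, minus strand: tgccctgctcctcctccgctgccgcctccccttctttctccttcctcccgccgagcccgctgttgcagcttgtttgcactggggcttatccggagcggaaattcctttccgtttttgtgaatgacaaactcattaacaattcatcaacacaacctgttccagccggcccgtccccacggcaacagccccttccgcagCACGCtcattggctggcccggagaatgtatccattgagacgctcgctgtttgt
*SPRY1*, chr4:123396545-123396794, plus strand: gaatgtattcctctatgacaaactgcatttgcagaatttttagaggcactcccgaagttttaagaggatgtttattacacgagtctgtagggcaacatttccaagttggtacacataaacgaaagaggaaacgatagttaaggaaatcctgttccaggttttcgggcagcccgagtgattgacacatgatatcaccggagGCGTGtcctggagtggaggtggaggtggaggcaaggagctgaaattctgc
*SPRED2*, chr2:65432600-65432849, minus strand: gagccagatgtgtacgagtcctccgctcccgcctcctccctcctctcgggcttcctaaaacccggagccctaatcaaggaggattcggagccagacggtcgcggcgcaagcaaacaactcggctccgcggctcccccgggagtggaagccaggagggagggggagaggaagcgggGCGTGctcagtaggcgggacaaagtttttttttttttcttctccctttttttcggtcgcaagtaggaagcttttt
*DUSP1*, chr5:172771196-172771445, minus strand: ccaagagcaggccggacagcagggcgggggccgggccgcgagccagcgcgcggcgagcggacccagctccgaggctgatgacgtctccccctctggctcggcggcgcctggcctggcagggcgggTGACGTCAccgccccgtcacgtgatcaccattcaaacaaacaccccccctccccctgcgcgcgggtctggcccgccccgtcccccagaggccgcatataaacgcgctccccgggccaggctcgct
*SPRY2*, chr13:80341127-80341376, minus strand: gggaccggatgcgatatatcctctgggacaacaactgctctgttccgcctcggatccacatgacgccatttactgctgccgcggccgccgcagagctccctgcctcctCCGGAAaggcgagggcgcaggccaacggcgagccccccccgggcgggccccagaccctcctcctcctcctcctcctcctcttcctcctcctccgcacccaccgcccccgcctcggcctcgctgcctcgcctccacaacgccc
The cores start at positions -53, -50 and -75 relative to the annotated starts of *DUSP6*, *SPRY1* and *SPRED2*, the cAMP response element at -125 of *DUSP1* and the ETS core at -142 of *SPRY2*. The log2 fold changes of the 3 genes with an AhR core were 1.00, 0.29 and 0.15, and those of the 5 searched without one ran from -0.14 to 0.37. The values of 0.29 and 0.15 lie within that range, and the 1.00 of *DUSP6* was 0.31 with length offsets. A link between motif and fold change was not tested. A match is a stretch of letters and not a measured binding site.

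The other genes of the pathway were described from lists of names, in the same fit. Of the related phosphatase, Sprouty and SPRED genes, 6 of 7 were tested and *DUSP2* was not, with 1 to 4 counts per library. *DUSP10* (MKP-5), which acts on p38 and JNK, was the only gene of this list that passed, where 5.42% of all genes tested did. It fell from 43.3, 40.3 and 36.7 CPM to 30.1, 29.0 and 26.6 CPM, and the fitted log2 difference was -0.49 (SE 0.09, adjusted p = 0.00796 from edgeR). Without CRE + VAF347 replicate 3 it was -0.45 with an adjusted p of 0.0583. The others, *DUSP8*, *DUSP9*, *DUSP16*, *SPRED3* and *SPRY3*, had log2 fold changes of -0.61, -0.51, -0.04, 0.27 and 0.58, and only *DUSP16* and *DUSP10* had mean levels over 5 CPM.

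Among receptors and ligands that feed the cascade, 3 of 14 passed, where 5.42% of all genes tested did. *EREG* (epiregulin), a ligand of EGFR, rose from 17.1, 15.0 and 16.8 CPM to 36.4, 37.6 and 33.5 CPM, a fitted log2 difference of 1.14 (SE 0.09, adjusted p = 6.10e-05 from edgeR). *AREG* (amphiregulin), another EGFR ligand, rose by 0.76 on the log2 scale, with an adjusted p of 0.00531. The hepatocyte growth factor receptor gene *MET* fell from 451.5 ± 47.9 to 325.3 ± 17.0 (SD, n = 3) CPM, with an adjusted p of 0.00617 from edgeR. *TGFA* and *FGFR4* had log2 fold changes of 0.22 and -0.38, with adjusted p of 0.106 and 0.105. The median of the list was -0.11.

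The kinases and adaptors of the cascades come next, where 5.42% of all genes tested passed. Of 17 genes from the adaptors to the kinases, 1 passed, *MAPK3* (ERK1), which fell by 0.28 on the log2 scale with an adjusted p of 0.0438 from edgeR. That call was lost in every fit that left out 1 library except the fit without CRE replicate 3. *KSR1*, *MAP2K2* and *SOS1* had log2 fold changes of -0.31, -0.22 and 0.22, with adjusted p of 0.0641, 0.0899 and 0.0909. The median over the 17 was -0.0015. Of 13 genes of the p38 and JNK cascades, 1 passed, the kinase gene *MAP3K1*, which fell by 0.39 on the log2 scale (adjusted p = 0.0107 from edgeR). Leaving out CRE + VAF347 replicate 2 or 3 raised this p to 0.0688 or 0.0668. *MAP2K6*, a p38 activator, had -0.50 and an adjusted p of 0.104.

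Among 11 other brakes on Ras and receptors, 3 fell and 0 rose, where 4.07% of all genes tested fell and 1.35% rose. *ERRFI1* (MIG6), which inhibits EGFR, fell from 213.3 ± 3.9 to 149.2 ± 15.5 (SD, n = 3) CPM, a fitted log2 difference of -0.52 (SE 0.08, adjusted p = 0.00287 from edgeR). *RASAL2* and *DAB2IP*, which encode GTPase-activating proteins of Ras, fell by 0.38 and 0.31 on the log2 scale (adjusted p = 0.0107 and 0.0324 from edgeR). The adjusted p of *DAB2IP* was 0.0777 to 0.121 without CRE replicate 2 or CRE + VAF347 replicate 1, 2 or 3. With length offsets it was 0.178. That of *RASAL2* was 0.0604 or 0.0624 without CRE + VAF347 replicate 2 or 3. *RASA1*, another Ras inactivator, and *CBL*, a ubiquitin ligase, had values of 0.19 and 0.12, with adjusted p of 0.130 and 0.256. Without CRE + VAF347 replicate 2 or replicate 3, 1 of the 11 passed. The partner of the SPRED proteins, *NF1*, which encodes neurofibromin, went from 132.0 ± 5.97 to 142.3 ± 2.32 CPM (SD, n = 3 each, adjusted p = 0.325 from edgeR).

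The next list holds 10 other transcripts known to respond to ERK, not all of them, and was chosen with earlier results of these data known. Of these, 7 rose and 1 fell, where 1.35% of all genes tested rose and 4.07% fell. *IER3*, an immediate early gene, rose from 27.4, 26.8 and 27.8 CPM to 56.5, 58.5 and 60.6 CPM, a fitted log2 difference of 1.10 (SE 0.07, adjusted p = 9.10e-06 from edgeR). The ETS factor genes *ETV4* and *ETV5*, transcription factors induced downstream of ERK, rose by 0.84 and 0.76. *FOSL1* (FRA-1), an AP-1 subunit, rose by 0.78, and *EGR1*, an immediate early transcription factor, from 57.1, 67.0 and 69.4 CPM to 88.9, 104.6 and 103.7 CPM, by 0.62. *PHLDA1* and *CCND1* (cyclin D1) rose by 0.41 and 0.32. The receptor gene *EPHA4* fell, from 15, 13 and 16 counts to 3, 6 and 2 counts, with an adjusted p of 0.0257 that was 0.0605 to 0.131 without CRE replicate 1 or 2 or CRE + VAF347 replicate 1 or 3. With length offsets its log2 fold change was -0.90, against -1.86 in the reported fit. *CCND1* likewise had an adjusted p of 0.0660 to 0.0964 without CRE replicate 2 or CRE + VAF347 replicate 2 or 3. *EPHA2* and *ETV1* had log2 fold changes of 0.06 and 0.08 and did not pass. The median log2 fold change was 0.52 over these 10 genes and 0.20 over the 10 feedback genes, and whether the lists differ was not tested. On log2(TPM + 1), limma called 3 of the 9 genes it tested, all of them rising.

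**Figure D4:**
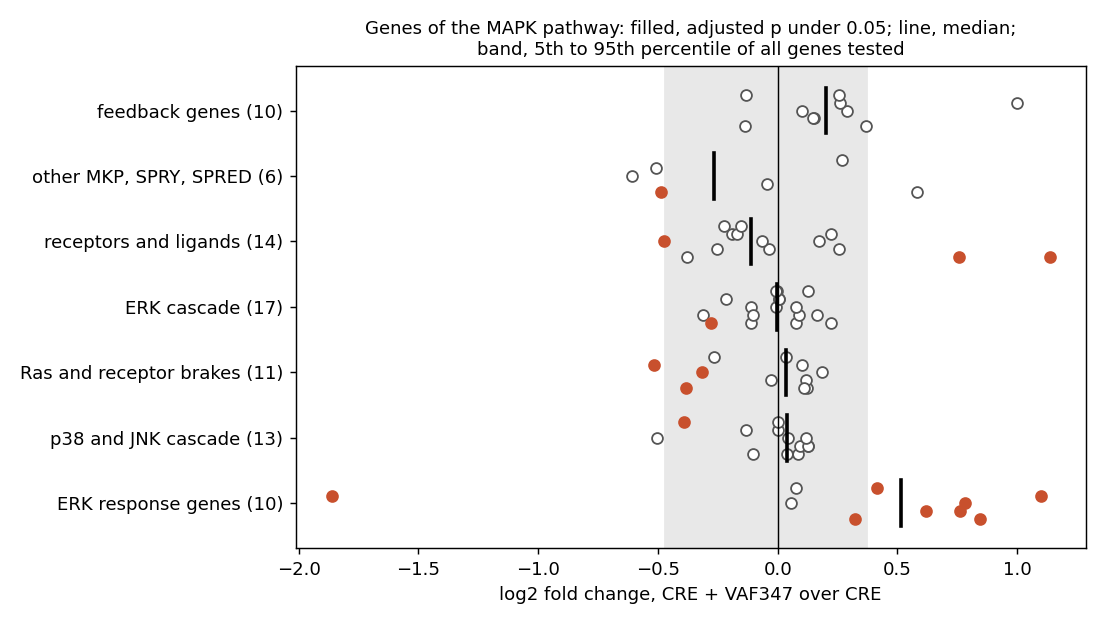
Log2 fold change of CRE + VAF347 over CRE (x axis) for the tested genes of each list (rows, number of genes in brackets), filled where the adjusted p was under 0.05, with the median of the list as a line and the 5th to 95th percentile of all genes tested, -0.47 to 0.37, as a grey band. All 10 feedback genes are open circles, and of the ERK response genes 7 are filled to the right of 0 and 1 to the left.

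For the member with the smallest p, *DUSP6*, the tested genes of most similar pattern over the 6 libraries were *GALNT5*, *ABCG2* and *NPAS2*. The scale was log2 of CPM plus a constant, centred on each gene's own mean. On it they differed from *DUSP6* by a root mean square of 0.07, 0.11 and 0.11. The constant shrinks differences of low genes. *DUSP6* lay at -0.17, -0.61 and -0.36 with CRE and at 0.43, 0.41 and 0.29 with VAF347. The match is thus to a smaller change than the fitted 1.00 of *DUSP6*, and likeness without the constant was not tested. Being chosen for a pattern that is higher in the VAF347 libraries, the chosen genes had to differ between the groups. Their values are given as a description. *GALNT5*, which encodes a glycosyltransferase of mucin-type O-glycosylation, was at 68.8 ± 6.6 CPM in CRE libraries and at 122.3 ± 3.0 CPM (SD, n = 3 each) in those with VAF347, with a log2 fold change of 0.83. *ABCG2*, an efflux transporter gene, and *NPAS2*, a clock transcription factor gene, had values of 0.71 and 0.66.

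Fold changes of the feedback genes were recomputed under 16 other settings. The share of all genes that passed was 5.4% with DESeq2 size factors, 4.69% with DESeq2's Wald test, 5.56% with no filter on low counts, 6.1% with at least 10 counts in every library, 4.72% with the replicate number as a block, 1.99% with length offsets and 4.38% with a GC offset. It was 0.545%, 0.533% and 0.112% with limma on log2(TPM + 1), on log2(TPM + 0.1) and on log2(TPM + 1) with no filter. With CRE replicate 1, 2 or 3 left out it was 3.98%, 3.21% or 8.26%, and with CRE + VAF347 replicate 1, 2 or 3 left out 2.43%, 2.16% or 1.96%. The sign of each member was the same in every alternative that gave it a value, and 0 of the members had an adjusted p under 0.05 in any of them. The lowest adjusted p of each member over its alternatives ran from 0.0697 for *DUSP6* to 0.512 for *DUSP1*. When each library was left out, the log2 fold change of *DUSP6* ran from 0.84 to 1.16, and that of *DUSP4* from 0.12 to 0.17. The others moved more for their size: *DUSP1* ran from -0.20 to -0.05 (the latter without CRE + VAF347 replicate 3, and -0.06 without CRE replicate 1), *DUSP7* from -0.23 to -0.06, its extremes when CRE + VAF347 replicate 1 and CRE replicate 3 were dropped, and *DUSP5* from 0.04 (without CRE replicate 2) to 0.15. *SPRY1* ran from 0.11 (without CRE replicate 2) to 0.45 (without CRE replicate 1), *SPRY2* from 0.19 to 0.35 and *SPRY4* from 0.17 (without CRE + VAF347 replicate 2) to 0.32. *SPRED1* ran from 0.21 (without CRE replicate 2) to 0.48 and *SPRED2* from 0.08 (without CRE + VAF347 replicate 3) to 0.19. The median over the members was 0.13 without CRE + VAF347 replicate 3, 0.14 without CRE replicate 2 and 0.21 without CRE replicate 3, the library that stood apart, and it was 0.10 with limma on log2(TPM + 1).

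**Figure D5:**
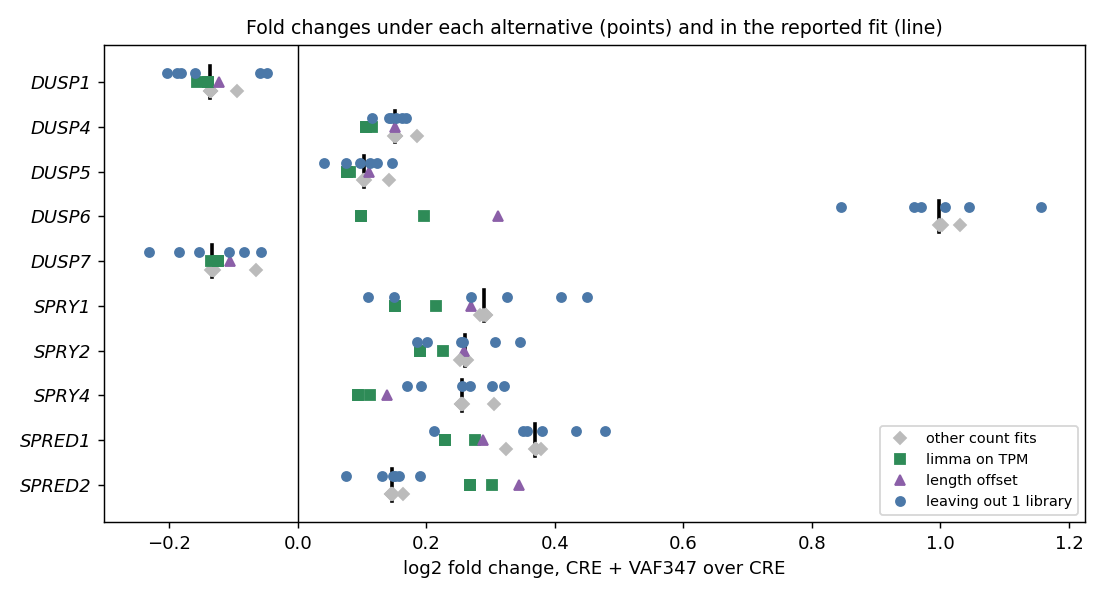
Log2 fold change of CRE + VAF347 over CRE (x axis) of each feedback gene in the reported fit (line) and under the alternatives (points): leaving out 1 library, limma on TPM, length offsets in edgeR, and other count fits. No point crosses 0, and *DUSP6* lies from 0.84 to 1.16 with 1 library left out but from 0.10 to 0.31 on TPM and with length offsets.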

How the data were processed

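The 6 libraries were made from poly(A) RNA. The authors' expected counts are Salmon estimates totalled by gene symbol, and they were deposited without scaling. TPM from the same quantification were also deposited, and each library adds up to 1000000. The labels name Salmon and hg38, but Salmon's version, the annotation and the strand setting are not given in the sources used here, so genes with antisense partners are less certain. *DUSP1*, *DUSP6* and *SPRY4* overlap antisense genes that average no more than 3 counts. Another deposited table, with the authors' own fold changes and p-values, was not used. Columns were matched to samples through the labels, with 0 unmatched. All 61228 names are in GENCODE v44, which gave positions on GRCh38.

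After rounding (14.5% of counts were not whole), genes were tested with edgeR 4.0.16 in R 4.3.3, using filterByExpr, TMM and its quasi-likelihood F-test, and p-values were adjusted by Benjamini-Hochberg over 15373 genes. Rose, fell and passed mean an adjusted p under 0.05. The standard error (SE) is the size of the log2 fold change divided by the square root of F, and intervals are 95% from the t distribution. At these depths 3 counts are 0.280 to 0.337 CPM.

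The members and gene lists were chosen with earlier results of these data known. Named are all members, list genes with an adjusted p under 0.05 and a log2 fold change beyond 0.5, up to 4 others per list by adjusted p, and the 3 genes most like the member with the smallest p. *NF1*, *DUSP16* and *SPRED3* were named after their values were seen. Statistics were tested on simulated data. Alternatives were DESeq2 1.42.0, its size factors, other count filters, a replicate block, limma 3.58.1 on log2(TPM + 1), with or without a minimum mean TPM of 1, and on log2(TPM + 0.1), length offsets and each library left out. A GC offset was added after the data were seen.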

Additional observations from a re-analysis of the deposited data

How the results depend on the processing

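The count of feedback genes past the test was 0 under each alternative that was run. Without a filter on low counts 1586 genes passed in all, where the reported fit had 833. With limma there were 87 on log2(TPM + 1), 85 on log2(TPM + 0.1) and 32 without a filter, with length offsets 306, and with the fold threshold 340. Leaving out CRE replicate 3 gave 1287 and leaving out CRE + VAF347 replicate 3 gave 305, the highest and lowest of the 6 such fits, and it was 501 without CRE replicate 2 and 381 and 338 without CRE + VAF347 replicates 1 and 2.

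The share of higher calls also moved with limma and no filter, to 20 higher and 12 lower genes, from 207 and 626, and with limma on log2(TPM + 1) to 34 and 53. Of the list of related phosphatase, Sprouty and SPRED genes, 0 passed with the 3 limma fits and with the fold threshold, and 0 to 1 with 1 library left out. Of the ERK cascade, 0 passed with DESeq2, the 3 limma fits, length offsets, the GC offset and the fold threshold, 2 without a filter, and 0 to 3 with 1 library left out. With the replicate number as a block, 0 of the ERK cascade and 726 of all genes passed, and *MAPK3* and *EPHA4* no longer did, with adjusted p of 0.0698 and 0.0510. Of the brakes on Ras and receptors, 0 passed with limma, 1 with the fold threshold and 1 to 3 with 1 library left out. Of the ERK response genes, 3 passed with limma on log2(TPM + 1) and on log2(TPM + 0.1), 1 with limma and no filter, and 5 with length offsets. Of the p38 and JNK cascades, 0 passed with limma, length offsets and the fold threshold, and 0 to 1 with 1 library left out. Of the receptors and ligands, 1 passed with limma and 5 with the GC offset. For the 17 list genes that passed, 197 of 268 values under the alternatives also passed in the same direction, 71 no longer passed and 0 changed sign. The cause of these moves was not tested.

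Same-numbered libraries deviated together with correlations of 0.10, 0.13 and 0.05 across genes, so the replicate numbers were not taken as pairs, although each library correlated best with its own number. *DUSP6* had no value with at least 10 counts in every library, and DESeq2 gave no adjusted p for *DUSP6* or *SPRY1*. *DUSP6* and *SPRY1* had only 8 to 23 counts per library, and what part this played in their results was not tested. Fold changes followed base composition, with a Spearman's rho of -0.35 between log2 fold change and GC content across 11163 genes, which are not replicates.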
